A study of Mus musculus with 15 samples.

Results

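The 10 genes of the cytotoxic granule described here encode 4 granzymes (Gzma, Gzmb, Gzmc and Gzmk), perforin (Prf1), 3 other granule components (Nkg7, Ctsw and Srgn) and 2 serpins that inhibit granzymes (Serpinb9 and Serpinb6b). They were chosen by name, as the rows of the gene count table whose Entrez ID maps to these mouse symbols, and all 10 were found among 27179 genes. RNA sequencing covered 15 libraries of mouse CD4 T cells cultured under 3 conditions named Th1, Tfh (T follicular helper) and Th17, with 5 libraries each. Naive cells were kept for 3.5 days on plate-bound antibodies against CD3 and CD28 and then sorted. All 3 groups carried the same genotype, B6.Cg-Ifngtm3.1Lky-Il17atm1.1Lky, whose allele names denote cytokine reporters at Ifng and Il17a. By the design text the Th1 cells were sorted as IFNg+ and the Tfh cells as CXCR5+ IL-17A–. The Th17 gate was not given in the sources used here, nor were the cytokines added to the cultures. The labels leave unsaid whether libraries of a condition are from different mice or cultures, so each p-value reflects only how much these samples vary, and part of that variation could be technical. The title places the series in work on how TGF-β directs CD4 T cells to the Tfh or the Th17 fate.

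Cytotoxic lymphocytes store their killing proteins in secretory lysosomes. Perforin opens pores in the membrane of the target cell, and granzymes, a family of serine proteases, enter through them and cleave proteins that lead to the death of that cell. Serglycin, encoded by Srgn, is the proteoglycan core that holds granzymes and perforin in the granule matrix, and cytosolic serpins protect the killer cell from its own leaked proteases. The granule is best known from CD8 T cells and NK cells, but CD4 T cells can also express its genes, above all under Th1-like conditions.

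Total counts ran from 4871468 in Tfh replicate 1 to 25200382 in Th1 replicate 3, so that 3 counts stood for 0.58 CPM (counts per 1000000, on library sizes scaled with TMM factors) in the shallowest and 0.127 CPM in the deepest library. No pair of replicates matched within counting noise, the lowest chi-square per gene being 9.39. All 8 CD4 T cell markers were expressed in every condition, and the list summed to 4287 to 5527 CPM in Th1, 6854 to 9377 CPM in Tfh and 6428 to 7301 CPM in Th17. Cd4 itself was at 593 ± 117 CPM in Th1, 552 ± 30.2 CPM in Tfh and 551 ± 72.0 CPM in Th17 (SD, n = 5 each) and passed in no comparison. Cd3d, Cd3e, Cd3g, Cd5, Cd28 and Trac were lower in Th1 than in both other conditions. Trac, for example, was at 763 ± 154 CPM in Th1, 2093 ± 439 CPM in Tfh and 1470.3 ± 113 CPM in Th17. Thy1 went the other way over Tfh, at 602 ± 157 CPM in Th1, 225 ± 35.2 CPM in Tfh and 484 ± 108 CPM in Th17. It was called 2.67-fold higher in Th1 than in Tfh and did not pass over Th17. Medians of all 8 markers were -0.95 over Tfh and -0.59 over Th17 on the log2 scale. Of all genes tested, 24.1% were called lower in Th1 over Tfh and 19.0% in Th1 over Th17. Libraries within a condition differed in how their levels followed the GC content of transcripts. In Th1, Spearman's rho between a gene's deviation from the condition mean and its GC content was -0.662, -0.319 and -0.457 in replicates 1, 2 and 5, and 0.705 and 0.714 in replicates 3 and 4, as a description across genes.

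Of the 10 granule genes, 7 passed the filter on low counts and were tested with edgeR, with p-values adjusted over all 12591 genes. Gzma, Gzmc and Gzmk did not pass. In Th1 over Tfh, 5 genes were higher (Gzmb, Prf1, Nkg7, Serpinb9 and Serpinb6b), 1 was lower (Ctsw) and 1 did not pass the test (Srgn). Of all genes tested, 25.2% were called higher and 24.1% lower in that comparison, 49.3% in either direction. In Th1 over Th17 the same 5 genes were higher and Ctsw was lower, where 17.8% of all genes were called higher and 19.0% lower, 36.9% in either direction. Both comparisons use the same Th1 libraries. Tfh over Th17 gave 1 call, Ctsw, which was higher, while 6.80% of all genes were called higher and 9.98% lower. In bulk samples such as these, fewer cells expressing a gene and less RNA per cell cannot be told apart.

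Promoter sequences are shown for Gzmb and Nkg7, genes high in Th1 that have a single RefSeq transcript each, to set their regulatory DNA beside their levels. They are the 250 bases upstream of the transcript start in RefSeq on GRCm38.p6, written 5′ to 3′ on the strand of the gene, where capitals mark matches to the motifs searched. As a check, bases just after the start were looked for in GENCODE transcripts of the gene. They were found for Nkg7 but not for Gzmb, whose start and strand rest on RefSeq alone.
Gzmb promoter, chr14:56262335-56262584, minus strand: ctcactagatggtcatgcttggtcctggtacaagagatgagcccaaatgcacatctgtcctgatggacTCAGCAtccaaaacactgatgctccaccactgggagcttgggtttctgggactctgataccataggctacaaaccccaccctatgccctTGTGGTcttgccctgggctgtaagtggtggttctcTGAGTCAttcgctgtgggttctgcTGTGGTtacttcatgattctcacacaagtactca
Nkg7 promoter, chr7:43436888-43437137, plus strand: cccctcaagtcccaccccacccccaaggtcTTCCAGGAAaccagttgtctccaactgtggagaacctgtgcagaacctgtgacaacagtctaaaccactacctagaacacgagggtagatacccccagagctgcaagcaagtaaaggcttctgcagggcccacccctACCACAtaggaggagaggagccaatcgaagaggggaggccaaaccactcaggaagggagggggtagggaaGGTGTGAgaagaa
The motifs were searched on both strands as exact letters, where N stands for any base, and matches were allowed to overlap. In the Gzmb and Nkg7 windows none does. They were a T-box core (GGTGTGA), a Runx core (TGTGGT), AP-1 (TGANTCA), STAT (TTCNNNGAA), an NFAT core (TGGAAA), a CRE core (TGACGT) and a core of the Maf recognition element (TGCTGA).

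In the Gzmb promoter the Runx core occurs at -93 and -34 and the AP-1 motif at -58, counted to the 5′-most base from the transcript start, and the Maf core lies on the reverse strand at -182. The Nkg7 promoter holds the T-box core at -13, a Runx core on the reverse strand at -83 and the STAT motif at -220. RefSeq promoters were matched for 9 of the 10 genes, all but Ctsw, in 10 windows, since Srgn has 2. The check against GENCODE transcripts succeeded for 7 of the 10 windows and failed for those of Gzmb, Prf1 and Gzmk. Several of these genes have more than 1 RefSeq transcript, and the windows of Prf1, Serpinb9, Serpinb6b and Gzmc and the second of Srgn belong to starts that lie inside the gene span given here. The Runx core was found in a window of 6 of the 9 genes (Gzma, Gzmb, Gzmc, Prf1, Nkg7 and Srgn), and 14.0% of all 32851 RefSeq promoter windows hold it. All matches in Srgn are in its inner window, and the window at the 5′ end of the gene holds none of the 7 motifs, nor does that of Serpinb6b. The T-box core was found in Gzmk and Nkg7 (3.33% of all windows), AP-1 in Gzmb (6.75%), STAT in Nkg7 (7.02%) and the Maf core in Gzmb (16.1%). NFAT was found in Gzma, Srgn and Serpinb9 (18.6%), and the CRE core in Gzmc, Prf1 and Srgn (6.47%). In Gzmc, CRE matches on opposite strands overlap each other. These matches describe letters in a window and say nothing of binding.

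Gzmb (Entrez 14939, chr14:56258836-56262334 on GRCm38) encodes granzyme B, which cleaves after aspartate and activates caspases in the target cell. Its levels were 428, 429, 459, 452 and 424 CPM in Th1 replicates 1 to 5, against 0, 5.09, 0.163, 1.99 and 0.889 CPM in Tfh and 0.468, 0.212, 1.02, 1.23 and 0.174 CPM in Th17. All 5 Th1 libraries lay far above every other library, and they lay close together, at 438 ± 16.0 CPM. Tfh averaged 1.63 ± 2.09 CPM, a mean carried by replicate 2, and Th17 averaged 0.620 ± 0.478 CPM (SD, n = 5 each). The log2 fold change was 8.12 ± 0.55 (SE), or 278-fold, in Th1 over Tfh, with an adjusted p of 7.82e-10 by edgeR. Without Tfh replicate 2 it was 9.06. In Th1 over Th17 it was 9.41 ± 0.60, or 680-fold, with an adjusted p of 4.41e-10 by edgeR. Tfh over Th17 gave 1.29 ± 0.69 and did not pass, with an adjusted p of 0.231 by edgeR, where the log2 fold change was 0.39 without Tfh replicate 2.

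The other 3 granzymes were scarce everywhere. Gzmc (Entrez 14940, chr14:56231397-56241647), a granzyme gene of the same cluster as Gzmb, had 0.561, 3.29, 3.31, 4.61 and 8.60 CPM in Th1, against 0, 0.424, 0, 0.896 and 0 CPM in Tfh and 0 CPM in Th17 apart from 0.0942 CPM in replicate 4. Every Th1 library lay above every Th17 library, and 4 of them lay above all Tfh libraries. Summed over the condition, Gzmc had 267 counts in Th1, 12 in Tfh and 1 in Th17. The ratio of depth-scaled sums was 15.6 for Th1 over Tfh (exact 95% interval 8.79 to 30.6) and 218 for Th1 over Th17 (38.7 to 8623), intervals that cover counting error only. In an edgeR fit without the filter on low counts, Gzmc was called higher in Th1, with adjusted p-values of 0.00175 over Tfh and 6.25e-05 over Th17. Part of the Gzmc transcript, 4.14% of its windows of 50 bases, is identical to a window of Gzmd, Gzme or Gzmg, so its reads may be split among these genes.

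Gzmk (Entrez 14945, chr13:113171630-113180965), which encodes a granzyme with trypsin-like specificity, had 0, 1.06, 0.551, 0.646 and 0.937 CPM in Th1 and no count in any of the 10 Tfh and Th17 libraries. The 42 counts in Th1 put it at least 9.82-fold higher than in Tfh and at least 11.4-fold higher than in Th17, taking 3 counts as the floor of a condition. Its adjusted p was 0.0145 over Tfh and 0.0160 over Th17 in the edgeR fit without the filter. Gzma (Entrez 14938, chr13:113093824-113100981), the other trypsin-like granzyme, summed to 22 counts in Th1, 2 in Tfh and 15 in Th17. Its levels overlapped between conditions, at 0 to 1.02 CPM in Th1, 0 to 0.199 CPM in Tfh and 0 to 1.41 CPM in Th17, where a single library held all 15 counts. No comparison of Gzma passed in the fit without the filter, with edgeR adjusted p-values of 0.190 for Th1 over Tfh, 0.887 for Th1 over Th17 and 0.388 for Tfh over Th17. The Gzma locus overlaps Cdc20b, and reads in the overlap cannot be assigned with certainty.

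Prf1, encoding perforin (Entrez 18646, chr10:61297751-61304684), was low in all conditions, in Th1 as well. It had 5.33, 3.58, 9.11, 8.30 and 5.02 CPM in Th1, against 5.03, 0.283, 0.735, 2.99 and 0.198 CPM in Tfh and 1.64, 0.635, 0.935, 1.79 and 0.871 CPM in Th17. Tfh replicate 1, the shallowest library, reached into the range of Th1, while no Th17 library did. Means were 6.27 ± 2.34 CPM in Th1, 1.85 ± 2.11 CPM in Tfh and 1.17 ± 0.509 CPM in Th17 (SD, n = 5 each). Prf1 rose by 1.83 ± 0.64 (SE) on the log2 scale in Th1 over Tfh, or 3.56-fold, with an adjusted p of 0.0246 by edgeR. This call was lost without Th1 replicate 3 (log2 fold change 1.66, edgeR adjusted p 0.0608), without Th1 replicate 4 (1.73, 0.0505) and without Tfh replicate 3 (1.62, 0.0599), and the log2 fold change was 2.55 without Tfh replicate 1. Against Th17 the rise was 2.42 ± 0.65, or 5.34-fold, with an adjusted p of 0.00680 by edgeR. Tfh over Th17 gave 0.58 ± 0.67 with an adjusted p of 0.620.

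Nkg7 (Entrez 72310, chr7:43437138-43438246) encodes a membrane protein of the granule that is needed for full degranulation. Its levels were 236, 360.2, 691, 536 and 332 CPM in Th1, against 8.89, 2.83, 3.76, 11.2 and 6.03 CPM in Tfh and 4.92, 1.38, 4.59, 5.47 and 4.27 CPM in Th17. The lowest Th1 library stood well above the highest of the other conditions, although Th1 libraries differed widely among themselves, at 431 ± 181 CPM (SD, n = 5). The log2 fold change was 6.05 ± 0.42 (SE), or 66.2-fold, over Tfh with an adjusted p of 9.04e-10 and 6.70 ± 0.43, or 104-fold, over Th17 with an adjusted p of 5.14e-10, both by edgeR. Tfh over Th17 gave 0.65 ± 0.39 and did not pass (adjusted p = 0.294).

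**Figure D1:**
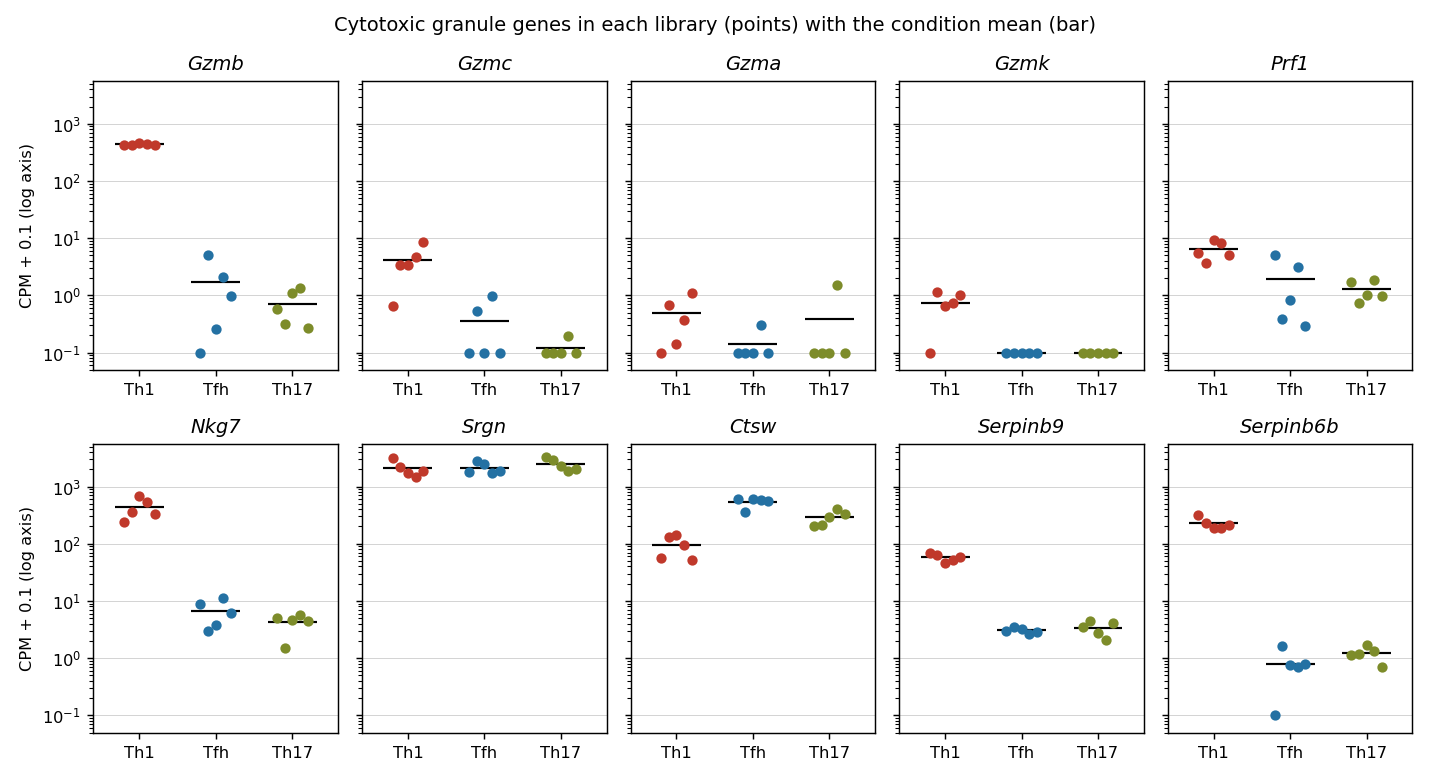
Level of each of the 10 granule genes as CPM + 0.1 on a log axis, for Th1, Tfh and Th17 (points are libraries, 5 per condition, and bars are condition means). Gzmb, Nkg7, Serpinb9 and Serpinb6b of Th1 lie clear of all other libraries, Srgn overlaps throughout, and Ctsw is lowest in Th1 and highest in Tfh.

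Ctsw (Entrez 13041, chr19:5465043-5468628), encoding cathepsin W, a papain-like protease known from CD8 T cells and NK cells, went the other way. It had 56.8, 132, 143, 95.3 and 50.8 CPM in Th1, against 610.3, 358, 608, 571 and 548 CPM in Tfh and 203, 216, 287, 403 and 332 CPM in Th17. All Th1 libraries lay below all others, and Tfh and Th17 overlapped only through Tfh replicate 2 and Th17 replicate 4. Means were 95.5 ± 42.0 CPM in Th1, 539 ± 104 CPM in Tfh and 288 ± 83.0 CPM in Th17 (SD, n = 5 each). The log2 fold change was -2.49 ± 0.28 (SE), or 5.63-fold lower, in Th1 over Tfh and -1.59 ± 0.27, or 3.01-fold lower, in Th1 over Th17, with edgeR adjusted p-values of 6.14e-07 and 0.000126. Tfh over Th17 gave 0.90 ± 0.27, or 1.87-fold higher, with an adjusted p of 0.0242 by edgeR. Leaving out any of 5 libraries (Tfh replicate 1 or 3, or Th17 replicate 1, 2 or 3) brought that adjusted p to between 0.0531 and 0.0688. The Ctsw locus overlaps Fibp, which averaged 33.1 ± 9.47 CPM in Th1, 30.3 ± 7.22 CPM in Tfh and 25.6 ± 6.76 CPM in Th17 and passed in no comparison.

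Srgn (Entrez 19073, chr10:62493833-62527445), the serglycin gene, stood above the other 9 genes per length of transcript in every library and was the only tested one called in no comparison. Its levels were 3136, 2188, 1734, 1493 and 1894 CPM in Th1, against 1818, 2781, 2483, 1732 and 1837 CPM in Tfh and 3298, 2920.4, 2305, 1872 and 2036 CPM in Th17. The 3 ranges overlapped almost entirely. The log2 fold change was -0.03 (95% interval -0.43 to 0.37) in Th1 over Tfh, -0.25 (-0.65 to 0.15) in Th1 over Th17 and -0.22 (-0.62 to 0.18) in Tfh over Th17, with edgeR adjusted p-values of 0.922, 0.365 and 0.516. The fit leaves room for differences within these intervals. In Th1 over Tfh its SE was 0.20, against 0.12 with each library's trend on GC content removed, where Srgn was not called either. Srgn made up 52.8% to 73.9% of the summed CPM of the 10 genes in Th1 libraries, 74.4% to 88.2% in Tfh and 81.8% to 93.9% in Th17.

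Both serpins were high in Th1 and low elsewhere. Serpinb9 (Entrez 20723, chr13:32997061-33017955), whose product inhibits granzyme B, had 70.1, 64.3, 45.2, 51.9 and 59.4 CPM in Th1, against 2.90, 3.39, 3.10, 2.59 and 2.77 CPM in Tfh and 3.40, 4.45, 2.63, 1.98 and 4.01 CPM in Th17. Serpinb6b (Entrez 20708, chr13:32956811-32979067), whose product inhibits granzyme A in the mouse, had 313, 234, 185, 187 and 212 CPM in Th1, against 0, 1.55, 0.654, 0.597 and 0.692 CPM in Tfh and 1.05, 1.06, 1.61, 1.23 and 0.610 CPM in Th17. For both genes every Th1 library stood above every other library, and the Tfh and Th17 libraries overlapped. Serpinb9 was higher by 4.30 ± 0.23 (SE) on the log2 scale over Tfh, or 19.7-fold, and by 4.14 ± 0.22 over Th17, or 17.7-fold, with edgeR adjusted p-values of 2.02e-11 and 3.93e-11. Serpinb6b was higher by 8.28 ± 0.34 over Tfh, or 310-fold, and by 7.65 ± 0.32 over Th17, or 200-fold, with edgeR adjusted p-values of 8.16e-13 and 1.67e-12. Neither passed in Tfh over Th17, where Serpinb9 had -0.16 ± 0.23 (adjusted p = 0.706) and Serpinb6b -0.63 ± 0.41 (adjusted p = 0.336). Of the Serpinb6b transcript 3.12% of windows of 50 bases, and of the Serpinb9 transcript 0.380%, are shared with a related serpin gene.

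Libraries of Th1 and Tfh did not overlap for 4 genes that were higher in Th1 (Gzmb, Nkg7, Serpinb9 and Serpinb6b) and for Ctsw, which was lower, where 18.2% of all genes tested were higher and 16.1% lower without overlap, 34.3% in all. Libraries of Th1 and Th17 did not overlap for 5 higher genes, the 4 above and Prf1, and for Ctsw, where 14.3% of all genes were higher and 14.5% lower without overlap, 28.8% in all. Between Tfh and Th17 none of the 7 tested genes was free of overlap, against 14.5% of all genes, of which 5.74% were higher and 8.72% lower. The median log2 fold change over all genes tested was 0.01 in Th1 over Tfh, -0.03 in Th1 over Th17 and -0.01 in Tfh over Th17.

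**Figure D2:**
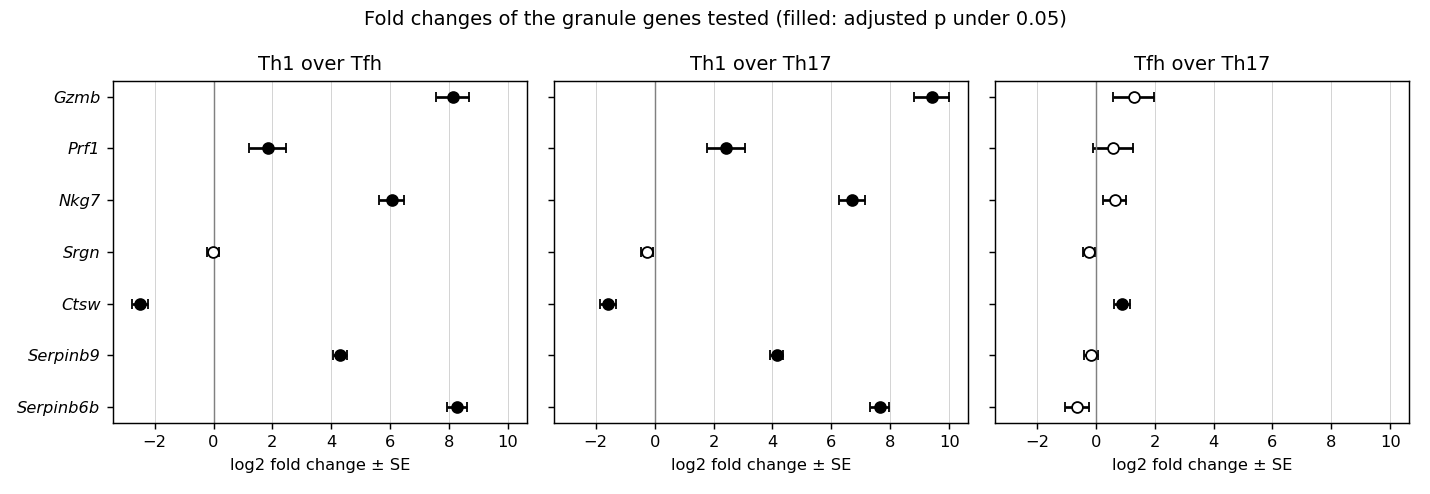
Log2 fold change ± SE of the 7 granule genes tested, in Th1 over Tfh, Th1 over Th17 and Tfh over Th17, where filled points passed the test. Serpinb6b and Gzmb reach 8.28 and 8.12 over Tfh, Ctsw lies below 0 in both Th1 comparisons, and Srgn lies near 0 in all 3.

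Levels of different genes can be set side by side only per length of transcript. The length used was that of the longest protein-coding GENCODE transcript, 1436 bases for Gzmb, 2474 for Prf1 and 3472 for Serpinb9. Which transcripts the cells made was not tested, and shorter ones would change the values, order and ratios below. On the scale of CPM per kilobase, Th1 cells held Srgn at 1210 ± 369, Nkg7 at 489 ± 206 and Gzmb at 305 ± 11.1 (SD, n = 5). Nkg7 exceeded Gzmb in 4 of 5 libraries, and their ranges overlapped. Serpinb6b followed at 103 ± 24.0 and Ctsw at 77.0 ± 33.9 CPM per kilobase, with overlapping ranges, and then Serpinb9 at 16.8 ± 2.83. Gzmc at 4.56 ± 3.28 and Prf1 at 2.53 ± 0.946 CPM per kilobase overlapped too, and Gzmk and Gzma stood last at 0.490 and 0.386. Granzyme B transcript thus exceeded perforin transcript per kilobase by 86.7 to 207 times within single Th1 libraries, with a median of 138. The lowest ratios, 86.7 and 93.8, were those of replicates 3 and 4, whose levels rose with GC content. Gzmb and Prf1 transcripts hold 46.2% and 53.6% GC, and the ratios are not corrected for it. The ratio of Gzmb to the transcript of its inhibitor Serpinb9 was 14.8 to 24.5 in the 5 Th1 libraries, with a median of 17.2.

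The order differed in the other conditions. In Tfh, Srgn at 1234 ± 273 and Ctsw at 435 ± 84.1 CPM per kilobase stood above the other 8 genes in every library. Nkg7 came next at 7.43 ± 3.99, and the rest averaged 1.13 or less. Th17 cells showed Srgn at 1440 ± 350 and Ctsw at 232 ± 66.8, followed by Nkg7 at 4.68 ± 1.81 and the rest at 0.948 or less. Below Nkg7, neighbours in the order overlapped in both conditions.

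The spread among Th1 libraries differed between the genes. Nkg7, Prf1 and Ctsw, whose transcripts hold 53.1%, 53.6% and 54.6% GC, had coefficients of variation in Th1 of 42.1%, 37.3% and 44.0%. Their highest Th1 values came from replicates 3 and 4 for Prf1 and Nkg7 and from replicates 2 and 3 for Ctsw. After each library's trend on GC content was removed, the coefficient of variation became 28.6% for Nkg7, 25.7% for Prf1 and 37.1% for Ctsw. For this correction the trend was fitted to deviations from the mean of all 15 libraries, not of the condition. It therefore also takes out differences between conditions that follow GC content. For Srgn and Serpinb6b, whose transcripts hold 42.9% and 44.1% GC and which were highest in Th1 replicate 1, it went to 12.9% and 9.11% after the correction, against 30.5% and 23.2% before. Gzmb went against this, with 13.6% after and 3.64% before. Under the correction the log2 fold change of Nkg7 was 6.67 ± 0.34 in Th1 over Th17, and no call on the 7 genes changed.

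Regulators of the cytotoxic programme, 17 of whose 18 listed genes were found and tested, held genes called in both directions. In Th1 over Tfh 10 were higher, 5 were lower and 2 did not pass, with a median log2 fold change of 2.16, where 25.2% of all genes tested were called higher and 24.1% lower. In Th1 over Th17 the counts were 11, 5 and 1, with a median of 1.23, where 17.8% of all genes were called higher and 19.0% lower. In Tfh over Th17 they were 3, 4 and 10, with a median of 0.17, where 6.80% of all genes were called higher and 9.98% lower. Tbx21, encoding T-bet, the factor that directs the Th1 fate, had 130.2, 145, 246, 243 and 143 CPM in Th1, against 3.10 to 5.18 CPM in Tfh and 1.22 to 3.49 CPM in Th17. It was higher by 5.58 ± 0.30 on the log2 scale over Tfh and by 6.14 ± 0.31 over Th17, with edgeR adjusted p-values of 2.89e-11 and 1.91e-11, and Tfh over Th17 did not pass (adjusted p = 0.229). Eomes, the related T-box factor of CD8 T cells and NK cells, stayed low, at 4.50 ± 1.09 CPM in Th1, 0.264 ± 0.399 CPM in Tfh and 0.120 ± 0.186 CPM in Th17 (SD, n = 5 each). Its log2 fold change was nonetheless 3.90 ± 0.88 over Tfh and 5.13 ± 0.97 over Th17, with edgeR adjusted p-values of 0.00123 and 0.000364, and Tfh over Th17 did not pass (adjusted p = 0.493).

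Prdm1, encoding Blimp-1, had 28.9, 24.3, 27.4, 26.8 and 22.6 CPM in Th1, against 0 to 0.494 CPM in Tfh and 0 to 1.10 CPM in Th17. Its log2 fold change was 7.49 ± 0.61 over Tfh and 5.44 ± 0.50 over Th17 (edgeR adjusted p = 8.84e-09 and 6.93e-08), and Tfh over Th17 did not pass (adjusted p = 0.0738). Runx3, a factor of the CD8 lineage and of Th1 cells, was expressed in all conditions, at 321 ± 130.3 CPM in Th1, 72.0 ± 19.5 CPM in Tfh and 127 ± 33.3 CPM in Th17, with log2 fold changes of 2.16 ± 0.26, 1.34 ± 0.25 and, in Tfh over Th17, -0.81 ± 0.25 (edgeR adjusted p = 1.54e-06, 0.000345 and 0.0322). Here and for the lists that follow, a fold change given without a p-value belongs to a gene that passed the edgeR test. Hopx, which encodes a homeodomain-only protein, was 52.6-fold higher in Th1 than in Tfh and 41.1-fold higher than in Th17. Among the genes that fell, Tcf7, which encodes the memory and follicular factor TCF-1, was at 203 ± 71.5 CPM in Th1, 1840.5 ± 409 CPM in Tfh and 680.0 ± 135 CPM in Th17. Bcl6 and Tox were 9.31- and 9.22-fold lower in Th1 than in Tfh, and 4.41- and 3.87-fold lower than in Th17. Id2 was 5.61-fold lower in Th1 than in Tfh and 6.95-fold lower than in Th17. In Tfh over Th17, Tcf7 and Tox were 2.71- and 2.38-fold higher, while Bhlhe40 and Nfil3 were 2.83- and 2.57-fold lower. Both Bhlhe40 and Nfil3 were highest in Th1, 6.63- and 7.81-fold over Tfh and 2.34- and 3.03-fold over Th17.

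Of the genes that process granule proteases or sort proteins to lysosomes, more were called lower in Th1 than higher. Of 14 listed genes 12 were tested, and 1 was higher, 8 lower and 3 did not pass in Th1 over Tfh (median log2 fold change -0.70). There 25.2% of all genes were called higher and 24.1% lower. In Th1 over Th17, 2 were higher, 8 lower and 2 did not pass (median -0.49), where 17.8% of all genes were called higher and 19.0% lower. Tfh over Th17 gave 3 higher and 9 not passed (median 0.28), where 6.80% of all genes were called higher and 9.98% lower. Ctsc, encoding cathepsin C, which removes the propeptide from granzymes, was at 137 ± 43.4 CPM in Th1, 396 ± 81.0 CPM in Tfh and 358 ± 64.1 CPM in Th17. Its log2 fold change was -1.53 ± 0.20 over Tfh and -1.39 ± 0.20 over Th17 (edgeR adjusted p = 4.00e-06 and 1.98e-05). Ctsl, encoding the lysosomal protease cathepsin L, was 5.61-fold lower than in Tfh and 3.15-fold lower than in Th17. Gnptab, whose product makes the mannose 6-phosphate tag that carries enzymes to lysosomes, was 2.79- and 1.83-fold lower. Ctsb, encoding cathepsin B, was 1.31-fold higher in Tfh than in Th17.

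Calls on transport and exocytosis genes went both ways in the Th1 comparisons. Of 20 listed genes 19 were tested, with 4 higher, 3 lower and 12 not passed in Th1 over Tfh (median log2 fold change -0.04), 5, 2 and 12 in Th1 over Th17 (median 0.20), and 0, 3 and 16 in Tfh over Th17 (median 0.00). The calls over Tfh are near the shares of all genes tested, 25.2% higher and 24.1% lower, and are no result about the list. Of all genes, 17.8% were called higher and 19.0% lower in Th1 over Th17, and 6.80% and 9.98% in Tfh over Th17. The few calls in these 2 comparisons are not read as a result about the list either. Rab27a, Unc13d and Stxbp2, which dock and prime granules, passed in no comparison. Rab27a was at 132 ± 27.0 CPM in Th1, 164 ± 18.5 CPM in Tfh and 148 ± 20.7 CPM in Th17. Lyst, the gene of Chediak-Higashi syndrome, which controls the size of lysosomes, was 2.32-fold higher in Th1 than in Tfh and 2.14-fold higher than in Th17. Sytl3, a Rab27 effector, was at 17.0 ± 4.65 CPM in Th1, 0.297 ± 0.408 CPM in Tfh and 1.79 ± 1.23 CPM in Th17, 58.6- and 9.33-fold higher in Th1. The SNARE genes Vamp8 and Stx11 were lowest in Th1. Vamp8 was at 86.8 ± 11.8 CPM in Th1, 167 ± 19.2 CPM in Tfh and 171 ± 13.0 CPM in Th17. Stx11 was at 46.2 ± 17.9 CPM in Th1, 80.1 ± 17.1 CPM in Tfh and 131 ± 29.9 CPM in Th17. It was called lower in Th1 than in both other conditions and lower in Tfh than in Th17. Only its Th1 and Th17 libraries did not overlap. Stx7 was 1.63-fold higher in Th1 than in Tfh and 1.56-fold lower in Tfh than in Th17, and the adaptor genes Ap3d1 and Ap3b1 were 1.58-fold lower than in Tfh and 1.25-fold higher than in Th17.

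Death ligands and TNF family effectors gave 5 higher and 1 lower of 6 tested in Th1 over Tfh (median log2 fold change 3.08), 4 higher, 1 lower and 1 not passed in Th1 over Th17 (median 2.86), and 1 higher, 3 lower and 2 not passed in Tfh over Th17 (median -0.78). Ifng is among them and was the gene of the Th1 sort, so its rise is no finding. Without it the counts higher, lower and not passed were 4, 1 and 0 in Th1 over Tfh (median 1.58), 3, 1 and 1 in Th1 over Th17 (median 2.56) and 1, 3 and 1 in Tfh over Th17 (median -0.97). Of all genes, 25.2% were called higher and 24.1% lower in Th1 over Tfh, and 17.8% and 19.0% in Th1 over Th17. In Tfh over Th17 these shares were 6.80% and 9.98%. Fasl, the ligand of the death receptor Fas, was at 57.5 ± 4.84 CPM in Th1, 0.372 ± 0.586 CPM in Tfh and 1.59 ± 0.972 CPM in Th17, 134- and 35.4-fold higher in Th1. Tnfsf10, encoding TRAIL, was at 40.3 ± 12.8 CPM in Th1, 13.4 ± 2.10 CPM in Tfh and 4.48 ± 2.30 CPM in Th17, and each step of this order was called. Tnf was at 105 ± 24.5 CPM in Th1, 65.8 ± 10.4 CPM in Tfh and 129 ± 22.6 CPM in Th17, called higher over Tfh but not against Th17. Lta, encoding lymphotoxin alpha, was 24.0-fold higher in Th1 than in Tfh and 5.88-fold higher than in Th17, and Ltb was 1.44-fold lower in Th1 than in Th17.

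The serpins beyond the pair described above did not move as one. Of 17 listed, 4 had enough counts to be tested, with 2 higher, 1 lower and 1 not passed in both Th1 comparisons. Over Tfh 25.2% of all genes were called higher and 24.1% lower, and over Th17 17.8% and 19.0%. The median log2 fold change was 2.67 in Th1 over Tfh (2.53 with Serpina3f, which had no count in Tfh, at its lower bound) and 1.43 in Th1 over Th17. Serpinb1a, an inhibitor of neutrophil serine proteases, was at 1.39 ± 0.427 CPM in Th1, 92.9 ± 22.7 CPM in Tfh and 78.7 ± 15.3 CPM in Th17, 68.2- and 57.8-fold lower in Th1 with edgeR adjusted p-values of 6.19e-13 and 1.52e-12. Serpinb6a, the paralog of Serpinb6b, was at 62.1 ± 7.85 CPM in Th1, 66.3 ± 13.7 CPM in Tfh and 70.1 ± 8.77 CPM in Th17 and passed in no comparison. In Tfh over Th17, 1 serpin was lower and 3 did not pass, with a median of -1.23 (-0.30 with the bound). There 6.80% of all genes were called higher and 9.98% lower.

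**Figure D3:**
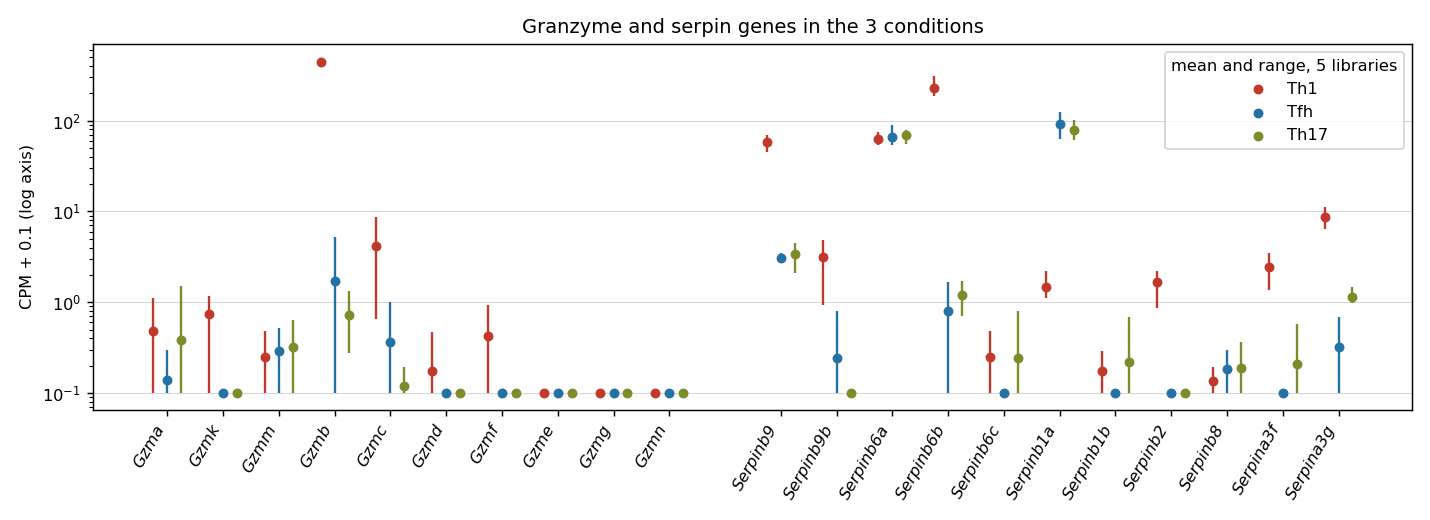
Mean (point) and range (line) over 5 libraries of granzyme genes and of serpin genes, as CPM + 0.1 on a log axis, in Th1, Tfh and Th17. Gzmb, Serpinb9 and Serpinb6b stand far higher in Th1, Serpinb1a far lower, Serpinb6a is level at 62.1 to 70.1 CPM on average, and the granzymes other than Gzmb stay low in all conditions.

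Receptors of cytotoxic lymphocytes numbered 14, of which 9 were tested. In Th1 over Tfh 5 were higher, 2 lower and 2 not passed (median log2 fold change 2.82), in Th1 over Th17 the counts were 4, 1 and 4 (median 0.95), and in Tfh over Th17 they were 1, 4 and 4 (median -0.89). Over all genes 25.2% were higher and 24.1% lower in Th1 over Tfh, 17.8% and 19.0% in Th1 over Th17, and 6.80% and 9.98% in Tfh over Th17, so the receptors called lower in Th1 are near the background. Klrk1, encoding NKG2D, had a log2 fold change of 5.84 ± 0.80 (SE) in Th1 over Tfh and 5.29 ± 0.73 in Th1 over Th17, or 57.4- and 39.2-fold. Hcst, encoding its adapter DAP10, was at 25.2 ± 11.5 CPM in Th1, 61.2 ± 11.4 CPM in Tfh and 29.5 ± 11.7 CPM in Th17, 2.41-fold lower in Th1 than in Tfh. Slamf7 was 50.8-fold and Cd226, encoding DNAM-1, 113-fold higher in Th1 than in Tfh, and 34.4- and 13.5-fold higher than in Th17. Klrd1 was called lower in Th1 than in both other conditions, with overlapping libraries. It was at 9.14 ± 4.19 CPM in Th1, 18.3 ± 8.78 CPM in Tfh and 34.0 ± 16.3 CPM in Th17. The chemokines that killer cells release gave 4 higher and 1 not passed of 5 in Th1 over Tfh (median 3.90), 3 higher, 1 lower and 1 not passed in Th1 over Th17 (median 1.90) and 3 lower and 2 not passed in Tfh over Th17 (median -1.86), beside the same shares of all genes. Ccl3 was at 135 ± 19.4 CPM in Th1, 2.33 ± 1.67 CPM in Tfh and 36.2 ± 5.05 CPM in Th17. Ccl4 had 104 ± 42.4 CPM in Th1 and 99.8 ± 25.8 CPM in Th17 and was not called between them, against 19.5 ± 5.03 CPM in Tfh, and Xcl1 was 8.57-fold lower in Th1 than in Th17.

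**Figure D4:**
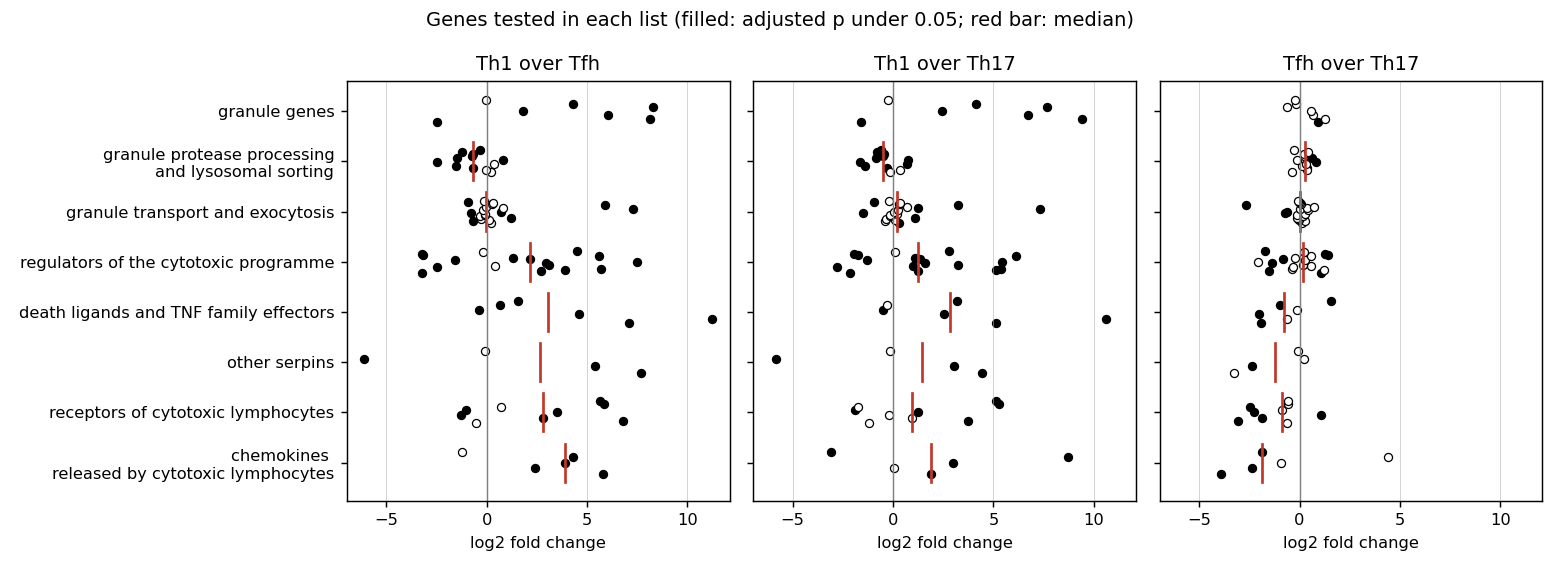
Log2 fold changes of the tested genes of each list, with list medians as red bars (none for the granule genes) and filled points for genes that passed the test, for Th1 over Tfh, Th1 over Th17 and Tfh over Th17. Regulators spread to both sides of 0 and processing genes lie mostly below it in the Th1 comparisons, while fitted values of genes with no count in a condition (Syt7, Serpina3f, Ccl9) depend on the prior count.

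Markers of other cells that carry granules were checked over whole lists. Of the 8 NK cell markers, Ncr1 and Klra8 had no count in any library, and the list summed to at most 1.44 CPM in Th1, 2.67 CPM in Tfh and 1.66 CPM in Th17. Both CD8 T cell markers were present, summing to 7.29 to 26.1 CPM in Th1, 5.22 to 11.3 CPM in Tfh and 6.19 to 16.0 CPM in Th17. Cd8a had 389 counts in Th1, none in Tfh and 12 in Th17 and was called higher in Th1 (edgeR adjusted p = 8.41e-05 over Tfh and 0.00124 over Th17), whereas Cd8b1, at 11.4 ± 3.90 CPM in Th1, 7.34 ± 2.32 CPM in Tfh and 10.3 ± 3.54 CPM in Th17, passed in neither. Of 5 gamma-delta T cell markers 2 were found, and they summed to 20.2 to 45.2 CPM in Th1, 6.57 to 20.3 CPM in Tfh and 4.50 to 8.57 CPM in Th17, nearly all of it from Trdc. Of the 7 mast cell markers 5 had no count in any library, and the list, nearly all of it Kit, summed to 6.77 to 10.8 CPM in Th1, 0.967 to 4.52 CPM in Tfh and 0.819 to 3.18 CPM in Th17. Myeloid markers summed to at most 1.12 CPM in Th1, 3.09 CPM in Tfh and 2.46 CPM in Th17, and B cell markers to at most 2.37, 2.59 and 1.11 CPM. Cd8a, Trdc and Kit thus moved with the granule genes called higher in Th1, and their part in the results was not tested.

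The genes with the pattern most like each granule gene were sought among 9206 tested genes, as a description. The measure was the root mean square difference of log2 levels over 15 libraries after each gene was centred. A small prior count was added before the log, which shrinks differences for genes with few counts. A small value therefore does not mean an equal fold change. For Gzmb these were Il3 at 1.13 and Chl1 at 1.13, for Nkg7 Arhgef10l at 0.668 and Dnah3 at 0.695, and for Serpinb6b Plac8 at 0.682 and H2-Q10 at 0.80. Il3, encoding interleukin 3, had 113 ± 17.3 CPM in Th1, 0.0198 ± 0.0442 CPM in Tfh and 0.0928 ± 0.0901 CPM in Th17. Serpinb9 was followed more closely, by Il18r1 at 0.322 and Gnal at 0.400. Il18r1, encoding a chain of the interleukin 18 receptor, had 223 ± 46.8 CPM in Th1, 15.6 ± 4.96 CPM in Tfh and 12.5 ± 1.01 CPM in Th17. Prf1 lay nearest to Cd74 at 0.650 and Dennd3 at 0.738. The nearest genes to Ctsw were Armc7 at 0.303 and Cux1 at 0.316, with Cux1 at 59.2 ± 15.4 CPM in Th1, 369 ± 23.6 CPM in Tfh and 224 ± 29.9 CPM in Th17. Those to Srgn were Cops3 at 0.113 and Dennd10 at 0.124.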

How the data were processed

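RNA input was 100 ng per library for the Lexogen SENSE mRNA-Seq kit, per the labels. Raw read counts per Entrez gene ID are what the authors deposited. Reads were aligned with STAR 2.7.2b to mm10 and counted with featureCounts 1.6.4, per the submitters' processing notes. The strand setting, annotation and handling of multi-mapped reads were not given in the sources used here, so counts of overlapping genes and near-identical copies are uncertain. Names came from RefSeq for 25275 IDs and from GENCODE for 18, and 1886 had none.

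In R 4.3.3, edgeR 4.0.16 filtered genes on low counts (filterByExpr, minimum count 10), which left 12591 genes and removed 5472 others with a count. TMM scaling, 1 model on all 15 libraries without covariates, and the robust quasi-likelihood test followed. The call threshold was 0.05 on p-values adjusted by Benjamini-Hochberg across the genes tested. Standard errors come from the F statistic. Floors of 3 counts and exact 95% intervals cover counting error only, since PCR copies are not independent molecules. The main fit was also run on simulated counts. Those had no trend on GC content and no effect shared between libraries, so that run does not cover these features of the data. Alternatives used DESeq2 1.42.0 and limma 3.58.1.

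The members and lists were chosen with earlier results of these data known. Named genes are the 10 granule genes, Tbx21, Eomes, Prdm1 and Runx3, up to 3 genes per list, comparison and direction with the largest called changes without overlap between libraries and at least 10 CPM in the higher condition, and the 2 nearest genes to each granule gene tested. Ctsw's neighbour Fibp, the cell markers, Rab27a, Unc13d, Stxbp2, Serpina3f, Serpinb6a and Klrd1 were added after their values were seen. So were levels, calls and fold changes given for a gene outside the comparison that named it.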

Additional observations from a re-analysis of the deposited data

Results flagged for a closer look

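Within each condition of 5 libraries, 28 sets of levels of the granule genes were examined for a single library that stood far from the other 4, which chance gives in about 1 of 20 sets, and 4 were found. In 3 of them the other 4 libraries had no count, so that any single count is picked out and the chance rate does not apply. Ctsw in Tfh replicate 2 was at 358 CPM, against 548 to 610.3 CPM in the other Tfh libraries. Gzma in Th17 replicate 4 was at 1.41 CPM, from 15 counts, and the other 4 Th17 libraries had none. Gzma in Tfh replicate 4 was at 0.199 CPM, from 2 counts, with none in the other Tfh libraries. Gzmc in Th17 replicate 4 was at 0.0942 CPM, from 1 count, with none in the other Th17 libraries.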

How the results depend on the processing

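With a library left out, granule genes called numbered 5 to 6 in Th1 over Tfh and 6 in Th1 over Th17, and both counts stayed at 6 under the other scalings, tools and corrections run, except that dropping the filter on low counts raised both to 8 by adding Gzmc and Gzmk. The Ctsw call in Tfh over Th17 made that count 0 to 1 with a library left out. Over all genes, the calls in Tfh over Th17 numbered 3496 under GC correction and 4011 with a replicate block and GC correction, against 2113. Without a library, all genes called ran from 5700 to 6256 in Th1 over Tfh, 4077 to 4943 in Th1 over Th17 and 1627 to 2399 in Tfh over Th17. Replicate numbers were not taken to pair the libraries, since correlations of same-numbered deviations ran from -0.102 to 0.57 and were not all over 0.1. The own number matched best in 8 of 15 cases, with 5 candidates each, and replicate 4 correlated at 0.444 or more in all 3 comparisons. Replicate 4 also had a positive trend on GC content within each condition, with rho of 0.714 in Th1, 0.575 in Tfh and 0.708 in Th17. The design gives no pairing, and whether pairing or this trend lies behind the correlations was not tested. With the replicate block, 6923, 5487 and 2941 genes were called in the 3 comparisons, against 6206, 4642 and 2113, and the granule calls stayed at 6, 6 and 1.

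Srgn in Th1 over Tfh, not called in any setting, was 0.0125 on the log2 scale with RLE factors and with DESeq2, 0.0036 with a strict filter, against -0.03, and ran from -0.19 to 0.11 with a library left out. Prf1 in Tfh over Th17, never called, was -0.28 with limma-voom and ran from -0.13 to 0.89 with a library left out. With limma-voom, Gzmb was 9.21 in Th1 over Tfh and 0.47 in Tfh over Th17, and Prf1 was 2.79 in Th1 over Tfh. The cause of these shifts was not tested. In Tfh and Th17 the summed counts were 67 and 33 for Gzmb, 32 and 58 for Serpinb6b and 69 and 60 for Prf1, and fewer for Gzma, Gzmc and Gzmk, so the sizes of their fold changes rest on few counts.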

Other observations

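Several relatives of the granule genes had too few counts for the filter and were seen mostly in Th1, and they are given as summed counts without a test, chosen after their values were seen. Serpinb9b, a paralog of Serpinb9, had 217 counts in Th1, 5 in Tfh and 0 in Th17, and Serpinb2, which encodes plasminogen activator inhibitor 2, had 100 in Th1 and 0 in both other conditions. The granzyme genes Gzmf and Gzmd of the Gzmb cluster had 25 and 4 counts in Th1 and none in Tfh or Th17. Gzmm had 10 counts in Th1, 9 in Tfh and 11 in Th17. Gzme, Gzmg and Gzmn had no count in any library.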
